A study of Mus musculus with 30 samples.

Results

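The genes described here were Atp1b1, Atp1b2, Atp1b4, Fxyd1, Fxyd5, Clcn1 and Scn4a, 7 of the 30205 mouse genes measured by RNA sequencing in 30 libraries of cultured muscle cells. They were chosen by name, as genes of the sodium pump and of the channels of the sarcolemma, with earlier results of these data known. Each was read as the sum over all of its transcripts. All 7 were listed in the files. The filter on low counts was passed by 6 among the C2C12 libraries and among the primary libraries, and by 7 in a fit over all 30 libraries. Atp1b4 was the exception, with a count above 0 in only 21 of 30 libraries.

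The sodium pump moves sodium out of the cell and potassium in, at the cost of ATP. It is built from a catalytic α subunit and a β subunit, which carries the α subunit to the membrane and steadies it there, and small FXYD proteins bind the pair and tune how it handles its ions. In a muscle fibre the pump restores the gradients on which the action potential runs. Nav1.4, encoded by Scn4a, opens to carry the upstroke of that action potential, and ClC-1, encoded by Clcn1, supplies the chloride conductance that returns the membrane to rest and keeps it there. Loss of ClC-1 function and some variants of Nav1.4 are known causes of myotonia.

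The study asked how the surface under a culture shapes the maturation of mouse myotubes. C2C12 cells, a mouse myogenic line bought from ATCC that descends from a single subclone, were taken at day 0, confluent on plastic before serum was withdrawn, and as myotubes at day 4 and day 7 of differentiation in low horse serum on plastic, on unpatterned gelatin hydrogel or on gelatin hydrogel micromolded into parallel lines (patterned). Primary myoblasts from the hindlimb of 3 C57/Bl6J mice 8 weeks of age were taken at day 0 on plastic and at day 4 and day 7 on patterned gelatin. The paper describes growing primary myoblasts on dishes coated with extracellular matrix, in Ham's medium with basic fibroblast growth factor. It describes growing C2C12 myoblasts on plastic in DMEM. Each of these 10 groups of cell, day and substrate held 3 libraries from separate cultures, and whether the 3 primary cultures came from different mice is not given in the sources used here. The paper describes separate batches of C2C12 cells and more libraries than were used here, and the sample titles name no batch. It reports that the single genes regulated often differed between batches. Whether the differences given below hold in another batch was not tested. No group carried a genetic change or a drug. Myotube cultures were trypsinised briefly before RNA was taken, to shed mononucleated cells, so day 0 and the later days differ in this step as well as in time. In primary cells day 0 and day 4 differ in substrate too and may differ in growth medium. Day, substrate and medium cannot be told apart there.

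Library totals ran from 13.1 M to 59.4 M estimated counts (M, counts in units of 1e6), with a median of 27.3 M. Summed markers of differentiating muscle (7 genes, Myog and Ckm among them) lay between 1116 and 1478 TPM (transcripts per 1e6, corrected for transcript length) in C2C12 day 0 and between 12357 and 17353 TPM in the 18 C2C12 myotube libraries. In primary cells they lay between 1657 and 2576 TPM at day 0 and between 8907 and 19116 TPM in myotubes. Markers of dividing cells moved the other way, from 866 to 1013 TPM in C2C12 day 0 down to 52.8 to 125 TPM in C2C12 myotubes. Fibroblast markers (5 genes) summed to 39.2 to 44.9 TPM in C2C12 day 0, to 83.4 to 188 TPM in C2C12 myotubes and to no more than 3.79 TPM in primary cells. Myoblast markers (3 genes) lay between 847 and 1006 TPM in primary day 0 and between 125 and 262 TPM in primary myotubes, and pericyte and smooth muscle markers (3 genes) between 23.4 and 59.0 TPM and between 0.671 and 9.94 TPM. Markers of leukocytes and glia stayed at or under 4.88 TPM in every library and those of adipocytes at or under 0.366 TPM. Some libraries stood apart in their groups. C2C12 day 7 patterned replicate 3, the shallowest at 13.1 M, had the lowest value of its group for all 7 genes, and its endothelial markers summed to 14.1 TPM against 2.04 and 1.84 TPM in its group. Primary day 7 replicate 3 had 8907 TPM of differentiating muscle markers against 19116 and 15770 TPM, and primary day 4 replicate 3 had 11598 TPM against 15750 and 16182 TPM. Primary day 0 replicate 3 had 59.0 TPM of pericyte and smooth muscle markers against 23.4 and 25.8 TPM. Some of the values that rest on these libraries are given without them too, and others are given with all libraries only. The part of these marker differences in the results was not tested. RNA was taken from pooled cells, in myotube cultures after the trypsin step, so the marker sums reflect that step too. Fewer cells of a type and less RNA per cell cannot be told apart.

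The upstream sequences of Clcn1, Scn4a and Atp1b1 are shown because most of the 7 genes rise together in differentiation. Positions are on GRCm38 (mm10), and each run holds the 250 bases before the start that RefSeq gives on GRCm38.p6, read 5′ to 3′ on the gene's own strand, and 6 of the 7 genes matched the RefSeq table. Clcn1 spans chr6:42286685-42315756 on the plus strand, and its upstream run is chr6:42286435-42286684. Capitals mark letters that match the E-box CANNTG, the site of myogenic factors, or the MEF2 motif.
Clcn1: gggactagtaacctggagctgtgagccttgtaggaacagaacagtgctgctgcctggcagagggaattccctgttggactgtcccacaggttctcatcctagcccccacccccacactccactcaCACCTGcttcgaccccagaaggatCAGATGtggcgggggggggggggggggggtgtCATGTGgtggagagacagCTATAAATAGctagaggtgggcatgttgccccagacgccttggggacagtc
The run holds 3 E-box matches, CACCTG at 125 to 120 bases before the start, CAGATG at 101 to 96 and CATGTG at 69 to 64. The MEF2 match CTATAAATAG at 51 to 42 overlaps a TATAAA at 50 to 45. On both strands, 66.2% of 32851 promoters of this length hold an E-box and 2.92% a MEF2 match. On the gene's own strand, 7.59% hold a TATAAA.
Scn4a spans chr11:106318592-106353288 on the minus strand, and its upstream run, chr11:106349391-106349640, lies inside that span where RefSeq places the start 1 base from that of the coding transcript. None of the motifs searched (E-box, MEF2, the serum response CArG box, TATAAA) is in its letters, so it has no capitals.
Scn4a: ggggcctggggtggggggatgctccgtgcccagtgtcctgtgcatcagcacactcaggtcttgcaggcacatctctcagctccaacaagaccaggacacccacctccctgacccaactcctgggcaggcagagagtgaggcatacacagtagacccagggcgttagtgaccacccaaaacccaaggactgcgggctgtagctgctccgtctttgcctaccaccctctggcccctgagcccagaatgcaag
Atp1b1 spans chr1:164437109-164458355 on the minus strand, and its upstream run is chr1:164458356-164458605. It holds none of those motifs and differs in base composition, so its capitals mark each CG dinucleotide.
Atp1b1: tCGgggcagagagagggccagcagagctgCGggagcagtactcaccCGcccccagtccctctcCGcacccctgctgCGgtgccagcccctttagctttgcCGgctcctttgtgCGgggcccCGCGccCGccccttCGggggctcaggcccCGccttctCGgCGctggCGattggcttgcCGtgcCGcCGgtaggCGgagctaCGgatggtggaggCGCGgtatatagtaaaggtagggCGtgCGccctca
It has 24 CG dinucleotides, a number that 11.978% of promoters reach, against a median of 6.0 over all promoters. The 5 other matched genes have 3 or 4. Of the genes whose runs are not printed, Fxyd1 and Fxyd5 hold none of the motifs searched. Atp1b4 holds 2 E-box matches and none of the other motifs. A match is a description of the letters and not a bound site.

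The other members lie as follows. Atp1b2 spans chr11:69599736-69605942 on the minus strand and Atp1b4 chrX:38316184-38336769 on the plus strand. Fxyd5 (chr7:31032722-31042481) and Fxyd1 (chr7:31051678-31057199) are near neighbours on the minus strand, 9.2 kb apart with Fxyd7 between them. Exons of Atp1b1 share 575 bases with Nme7 on the opposite strand and those of Clcn1 share 445 bases with Fam131b, also opposite. Whether reads were assigned by strand is not given in the sources used here, so these genes and their partners are uncertain to that extent.

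**Figure D1:**
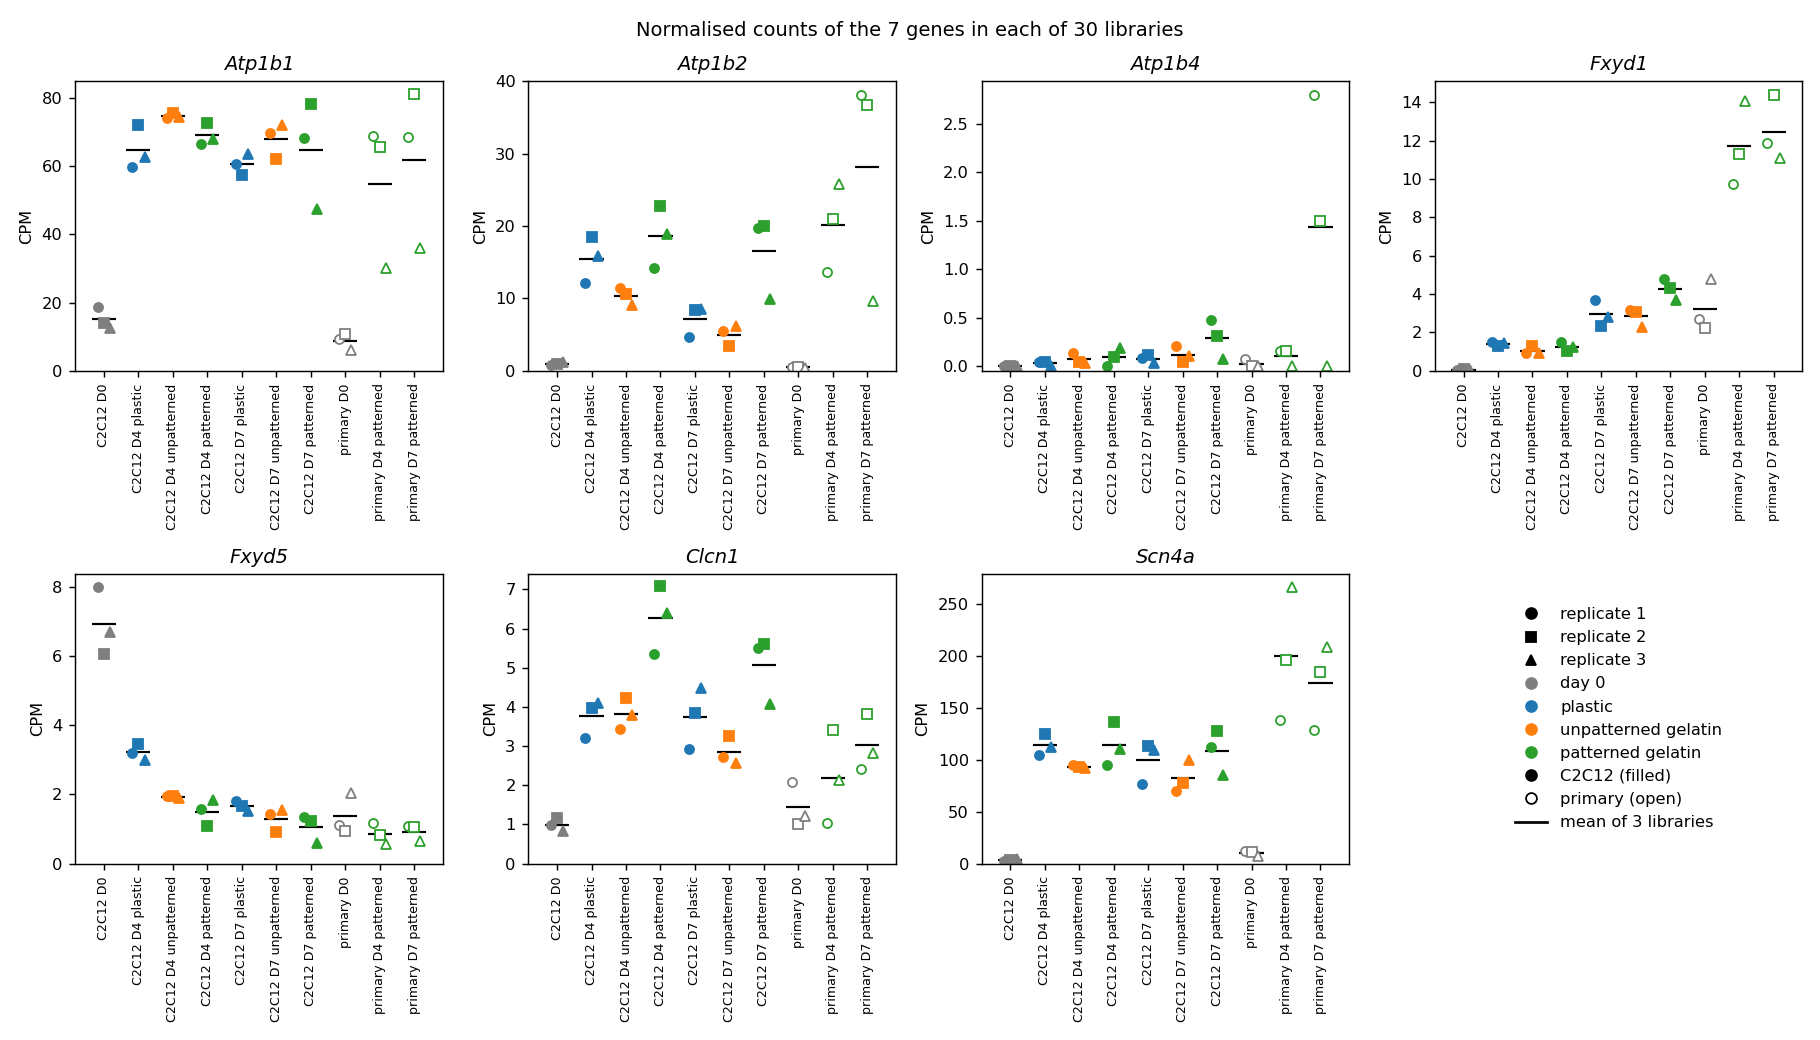
Counts per 1e6 (CPM) in each of the 30 libraries, with 1 panel per gene, groups on the x axis and CPM on the y axis. Filled points are C2C12, open points are primary cells, marker shapes are replicates and bars are group means; Fxyd5 alone is highest at C2C12 day 0 (6.06 to 8.01 CPM), and the 3 Fxyd1 libraries of C2C12 day 0 lie at or under 0.0937 CPM.

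The first comparison asked what changes as C2C12 myoblasts become myotubes. Between day 0 and day 4 on plastic, transcripts of the β1 and β2 pump subunits, of the pump regulator Fxyd1 (phospholemman) and of both channels rose, and those of Fxyd5 (dysadherin) fell. The change was called in 6 of 6 genes tested, 5 higher and 1 lower, at an adjusted p under 0.05 in edgeR's quasi-likelihood test with Benjamini-Hochberg adjustment; over all 14844 genes tested 58% were called, 30.2% higher and 27.7% lower. Groups did not overlap for 6 of 6 genes, against 69.7% of all genes. Most of the transcriptome moved in this step. The median log2 fold change was 3.01 over the 6 genes and 0.00 over all genes.

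Scn4a changed most. Its 3 day 0 libraries held 2.57, 3.37 and 3.96 CPM (counts per 1e6, scaled by TMM over the 30 libraries) and its 3 day 4 plastic libraries 105, 125 and 112 CPM. The groups are far apart, and the log2 fold change was 5.11 ± 0.21 (SE, n = 3 and 3, edgeR adjusted p = 1.34e-13). Only 1.35% of genes changed by as much in either direction. Clcn1 went from 0.98, 1.16 and 0.82 CPM to 3.21, 3.97 and 4.10 CPM. Every day 4 library lay above every day 0 library, at a log2 fold change of 1.91 ± 0.19 (edgeR adjusted p = 6.07e-08).

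Among the β subunits, Atp1b2 rose more than Atp1b1 in log2 terms, and their difference was not itself tested. Atp1b2 read 0.87, 0.94 and 1.23 CPM at day 0 and 12.1, 18.5 and 15.9 CPM at day 4 on plastic (log2 fold change 3.95 ± 0.33, edgeR adjusted p = 4.17e-09). Atp1b1 was already measurable in myoblasts, at 18.8, 14.2 and 12.6 CPM, and reached 59.8, 72.01 and 62.6 CPM (2.08 ± 0.14, adjusted p = 1.9e-10). In neither gene did the days overlap. Atp1b4, whose product in placental mammals is known mainly from the inner nuclear membrane of muscle and not as a pump subunit, was at a count of 0 in all 3 day 0 libraries and at 1, 1 and 0 on day 4 plastic, too low to test.

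The FXYD regulators went opposite ways. Fxyd1, which in muscle inhibits the pump until it is phosphorylated, was barely present at day 0, with counts of 1, 3 and 1, and stood at 1.52, 1.29 and 1.46 CPM at day 4 (log2 fold change 4.42 ± 0.36, edgeR adjusted p = 3e-09). With so few counts at day 0 the size of that fold rests on little, while its direction holds in all 3 libraries. Fxyd5, which modulates the pump and weakens cell adhesion in epithelia, was at 8.01, 6.06 and 6.69 CPM at day 0 and at 3.21, 3.46 and 3.00 CPM at day 4 (fell by 1.11 on the log2 scale, SE 0.20, adjusted p = 8.66e-05). It is the only member that was highest in myoblasts.

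Per transcript length, the order of the genes differed between myoblasts and myotubes. In C2C12 day 0, Fxyd5 had 19.0 ± 2.06 TPM (SD, n = 3) and Atp1b1 13.3 ± 4.47 TPM, while Scn4a had 2.12 ± 0.985, Clcn1 1.65 ± 0.747, Atp1b2 0.974 ± 0.0952 and Fxyd1 0.296 ± 0.137 TPM. At day 7 on patterned gelatin, Scn4a (52.3 ± 12.4 TPM) and Atp1b1 (50.5 ± 16.5 TPM) led and did not differ beyond their spread, although the coding transcript of Scn4a alone stood at 27.3 TPM. Fxyd1 followed at 17.98 ± 4.04 TPM and Atp1b2 at 12.6 ± 6.10 TPM, again within their spread of each other. Clcn1 (3.09 ± 0.996 TPM) and Fxyd5 (2.72 ± 1.09 TPM) were low and close, and Atp1b4 was lowest at 0.121 ± 0.0890 TPM. Replicate 3 gave the lowest value of each gene in this group, 38.1 TPM for Scn4a, 31.7 TPM for Atp1b1 and 5.67 TPM for Atp1b2 among them. Fxyd5 was first in this order in myoblasts and next to last in these myotubes.

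**Figure D2:**
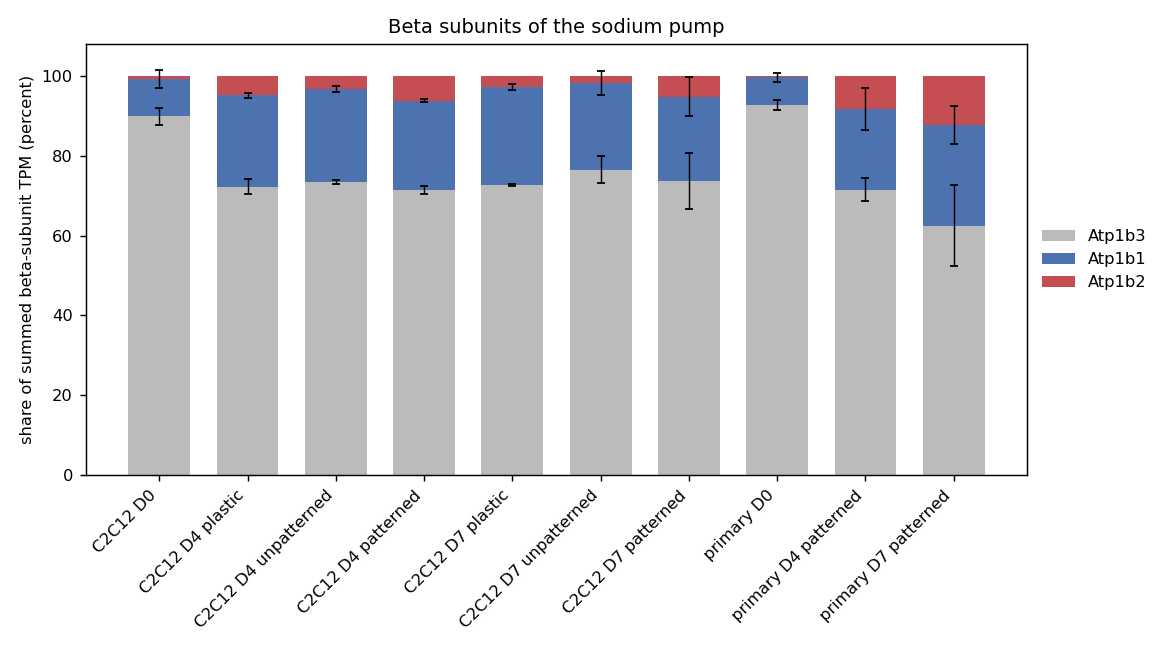
Share of β-subunit TPM held by Atp1b3, Atp1b1 and Atp1b2 in each of the 10 groups, in percent, as stacked bars of the mean of 3 libraries. Bars of the SD are drawn for the Atp1b3 and Atp1b1 segments and not for Atp1b2. Atp1b3 holds 89.9% in C2C12 day 0 and 92.8% in primary day 0, and between 62.5% and 76.5% in the myotube groups.

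Seen against one another, the β transcripts changed in make-up as well as in level. Atp1b3, the β3 subunit found in many cell types, held 89.9 ± 2.17% (SD, n = 3) of the TPM of Atp1b1, Atp1b2 and Atp1b3 in C2C12 day 0 and 72.3 ± 1.85% at day 4 on plastic. Over the same step the share of Atp1b1 went from 9.44 ± 2.22% to 22.9 ± 0.669% and that of Atp1b2 from 0.705 ± 0.0694% to 4.83 ± 1.33%. In the myotube groups of both cell types the group mean share of Atp1b1 lay between 20.2% and 25.2%. The group mean share of Atp1b2 ranged more widely. It went from 1.75 ± 0.382% in C2C12 at day 7 on unpatterned gelatin to 12.3 ± 5.72% in primary cells at day 7. Single libraries were spread in both genes. For Atp1b1 they ran from 14.2% in primary cells at day 4 to 30.05% in primary cells at day 7. For Atp1b2 they ran from 1.42% in C2C12 at day 7 on unpatterned gelatin to 15.8% in primary cells at day 7. In that primary group the lowest Atp1b2 share was 5.68%, in replicate 3. The stacked plot of β shares shows Atp1b2 as the segment that varies most among myotubes for its size. These shares are descriptions, with no test, and they sum all transcripts of each gene. Transcripts not annotated as coding held 45.3% of Atp1b2 TPM in primary cells at day 7 and 23.2% to 39.9% in the C2C12 myotube groups.

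The next comparison asked what continues to change from day 4 to day 7 in C2C12, on each surface. Fxyd1 rose on all of them, Atp1b2 fell on plastic and on unpatterned gelatin, and Fxyd5 fell on plastic. On plastic 3 of 6 genes were called against 14.8% of all genes, on unpatterned gelatin 2 of 6 against 2.92%, and on patterned gelatin 1 of 6 against 20.3%. Scn4a and Atp1b1, the most abundant members, were called on none.

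Fxyd1 at day 4 read 1.52, 1.29 and 1.46 CPM on plastic, 0.95, 1.28 and 0.94 CPM on unpatterned gelatin and 1.52, 1.03 and 1.23 CPM on patterned gelatin. At day 7 it read 3.71, 2.32 and 2.81 CPM, 3.19, 3.09 and 2.31 CPM, and 4.76, 4.33 and 3.69 CPM in the same order. On each surface every day 7 library lay above every day 4 library, a separation of the days seen for 38.6% of all genes on plastic, 21.7% on unpatterned and 35.6% on patterned gelatin. The log2 fold changes were 1.05 ± 0.21 on plastic (edgeR adjusted p = 0.00238), 1.44 ± 0.22 on unpatterned gelatin (0.000941) and 1.75 ± 0.21 on patterned gelatin (0.000103), or 1.80 (0.000249) without day 7 patterned replicate 3.

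Atp1b2 was called lower on plastic and on unpatterned gelatin and was not called on patterned gelatin. On plastic it read 12.1, 18.5 and 15.9 CPM at day 4 and 4.66, 8.45 and 8.54 CPM at day 7, without overlap (fell by 1.08 on the log2 scale, SE 0.26, edgeR adjusted p = 0.0098). On unpatterned gelatin it read 11.4, 10.6 and 9.08 CPM and then 5.45, 3.37 and 6.15 CPM, again without overlap (fell by 1.04, SE 0.27, adjusted p = 0.0436). On patterned gelatin it read 14.2, 22.8 and 18.9 CPM and then 19.7, 19.9 and 9.88 CPM, where the days overlap and the log2 fold change was -0.19 ± 0.25 (adjusted p = 0.626), or 0.030 without day 7 patterned replicate 3. The drop on unpatterned gelatin was called in only 4 of 14 alternative settings. The drop on plastic was lost without day 4 plastic replicate 2 (-0.94, adjusted p = 0.0585) or day 7 plastic replicate 1 (-0.85, adjusted p = 0.0571) and in limma on log2(TPM + 1), at -0.60, and on log2(TPM + 0.1), at -0.67.

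Fxyd5 kept falling from its day 4 level on plastic, from 3.21, 3.46 and 3.00 CPM to 1.81, 1.66 and 1.52 CPM (fell by 0.94 on the log2 scale, SE 0.22, edgeR adjusted p = 0.00778), with no overlap. On the gelatins the change was -0.56 ± 0.23 for unpatterned and -0.45 ± 0.25 for patterned, neither of them called (adjusted p = 0.236 and 0.203). Clcn1 gave -0.43 ± 0.17 on unpatterned and -0.32 ± 0.17 on patterned gelatin (adjusted p = 0.221 and 0.17). Atp1b1 stayed within -0.14 and -0.08 on the log2 scale over the 3 surfaces.

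**Figure D3:**
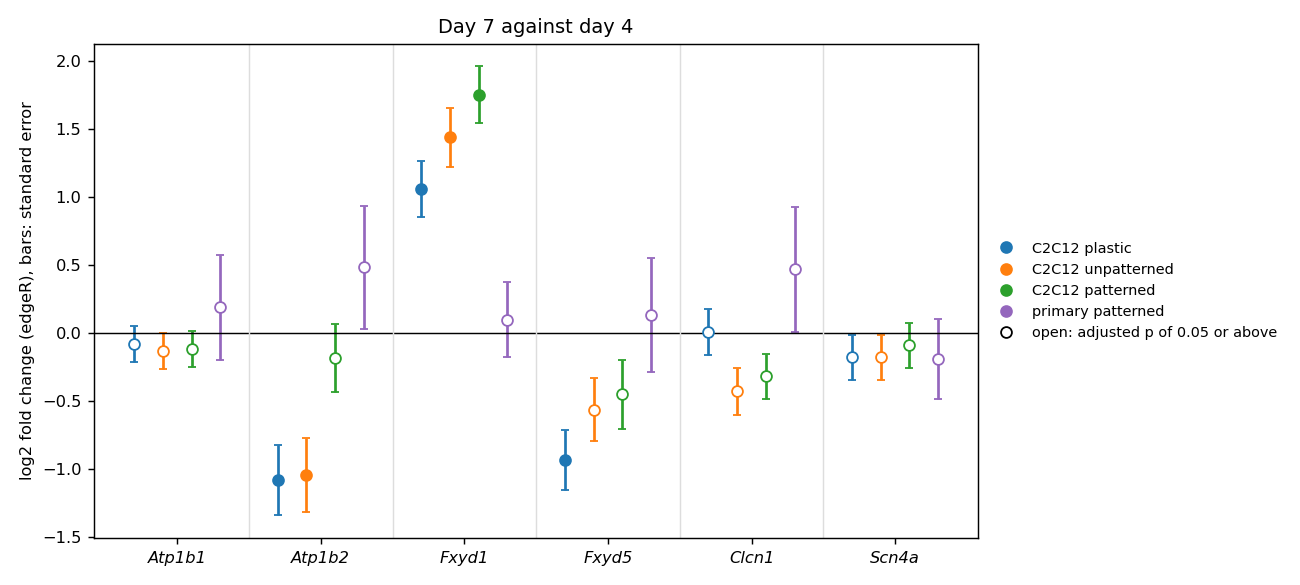
Log2 fold change from day 4 to day 7 for 6 genes on each of 3 surfaces in C2C12 and on patterned gelatin in primary cells, with bars of 1 SE; filled points were called at an adjusted p under 0.05. Fxyd1 is above 0 and filled on all C2C12 surfaces (1.05, 1.44 and 1.75), and Atp1b2 is near -1 on plastic and on unpatterned gelatin but at -0.19 on patterned gelatin.

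The substrate comparisons asked how the surfaces differ on the same day. They use the same 3 libraries of a surface more than once, so they are not independent of one another. Patterned against unpatterned gelatin separates the pattern from the material. At day 7, Atp1b2 and Clcn1 were higher on the pattern, 2 of 6 genes tested against 0.546% of all 14844 genes (0.397% higher). The Atp1b2 libraries, at 19.7, 19.9 and 9.88 CPM on patterned and 5.45, 3.37 and 6.15 CPM on unpatterned gelatin, do not overlap, and the difference of 1.72 ± 0.27 (edgeR adjusted p = 0.00579) was 1.94 without day 7 patterned replicate 3 (0.00118), the lowest of the patterned libraries. It was called without each library in turn. It was not called in limma on log2(TPM + 1), at 1.23 (adjusted p = 0.11), or on log2(TPM + 0.1), at 1.38 (0.118), or when only the compared groups entered the fit, at 1.72 (0.427). Clcn1 read 5.51, 5.61 and 4.07 CPM against 2.71, 3.25 and 2.58 CPM. The groups do not overlap in either gene, nor did they for 14.8% of all genes. The Clcn1 difference of 0.84 ± 0.17 (adjusted p = 0.0377) was 0.93 (0.0214) without day 7 patterned replicate 3 and lost its call in 7 of 14 alternatives, among them the sum over coding transcripts alone (0.77, adjusted p = 0.263), chosen after seeing the data.

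Not called at day 7 were Fxyd1, whose groups do not overlap (0.58 ± 0.20, edgeR adjusted p = 0.149), and Scn4a (0.39 ± 0.17, adjusted p = 0.212). Scn4a read 113, 128 and 85.7 CPM on patterned and 69.8, 78.0 and 99.4 CPM on unpatterned gelatin, and the groups overlap. The median over the 6 genes was 0.48, against 0.00 over all genes.

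At day 4 the same 2 genes had the largest differences, and neither was called. Atp1b2 was at 14.2, 22.8 and 18.9 CPM on patterned and at 11.4, 10.6 and 9.08 CPM on unpatterned gelatin (0.86 ± 0.26, edgeR adjusted p = 0.233). Clcn1 was at 5.34, 7.09 and 6.39 CPM against 3.44, 4.22 and 3.80 CPM (0.73 ± 0.16, adjusted p = 0.112). In both genes the groups do not overlap. Nor do they in Scn4a, higher on the pattern, or in Atp1b1 and Fxyd5, lower on it. That makes 5 of 6 members without overlap, against 21.4% of all genes. In edgeR 0 of 6 members and 0.00674% of all genes (1 gene) were called at day 4; at an unadjusted p under 0.05 there were 2 members and 1281 genes. DESeq2 called 1 member, Clcn1 (adjusted p = 0.0133), and 148 genes. Scn4a differed by 0.30 ± 0.16 (0.642). Whether the effect of the pattern changed between day 4 and day 7 was tested as an interaction. For Atp1b2 that term was 0.86 ± 0.37 (edgeR adjusted p = 0.661), and 0 members and 0% of genes were called. At an unadjusted p under 0.05 there were 1 member and 1064 genes, and DESeq2 called 0 members and 5 genes.

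Against plastic, patterned gelatin gave higher Atp1b2 at day 7 and higher Clcn1 and lower Fxyd5 at day 4. At day 7, 1 of 6 genes was called against 23.8% of all genes. Atp1b2 there read 4.66, 8.45 and 8.54 CPM on plastic, all under the patterned values given above (1.17 ± 0.26, edgeR adjusted p = 0.00698). Groups were as separate for 31.4% of all genes. The Atp1b2 difference was 1.38 without patterned replicate 3 (0.00313). It lost its call in limma on log2(TPM + 1), at 0.75 (0.106), and on log2(TPM + 0.1), at 0.82 (0.11), and with only the compared groups in the fit (0.178). Fxyd1 (0.52 ± 0.20, adjusted p = 0.0615), Clcn1 (0.41 ± 0.17, adjusted p = 0.0852) and Fxyd5 (-0.61 ± 0.25, adjusted p = 0.082) were not called, and Clcn1 was -0.21 in limma on log2(TPM + 1). At day 4, 2 of 6 genes were called against 3.55% of all genes. Clcn1, at 3.21, 3.97 and 4.10 CPM on plastic, was higher on the pattern by 0.74 ± 0.16 (adjusted p = 0.0193), a call lost in 6 of 14 alternatives. Fxyd5, at 1.59, 1.09 and 1.83 CPM on the pattern and 3.21, 3.46 and 3.00 CPM on plastic, was lower, at -1.09 ± 0.22 (0.0107). Neither gene's groups overlap, which held for 37.1% of all genes. The Fxyd5 call was lost without day 4 plastic replicate 2 (0.0538) and without day 4 patterned replicate 2 (-0.89, adjusted p = 0.0608). Scn4a at day 4 read 95.3, 137 and 110 CPM on the pattern and 105, 125 and 112 CPM on plastic. Atp1b2 read 14.2, 22.8 and 18.9 CPM on the pattern and 12.1, 18.5 and 15.9 CPM on plastic. In both genes these groups overlap, and neither was called.

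Unpatterned gelatin differed from plastic in Fxyd5 at day 4, 1 of 6 genes against 7.89% of all genes. Fxyd5 read 1.94, 1.95 and 1.88 CPM on unpatterned gelatin, under all 3 plastic libraries (-0.74 ± 0.22, edgeR adjusted p = 0.0413), a call lost in 9 of 14 alternatives. Groups did not overlap for 5 of 6 members, against 39.7% of all genes. Atp1b2, Fxyd1, Fxyd5 and Scn4a lay lower on unpatterned gelatin than on plastic, and Atp1b1 lay higher. At day 7 in edgeR 0 of 6 members and 3.46% of genes were called, with 1 member at an unadjusted p under 0.05 and 0 members by DESeq2. Atp1b2 was -0.59 ± 0.26 at day 4 and -0.55 ± 0.28 at day 7 (adjusted p = 0.168 and 0.276). Over the 9 comparisons among C2C12 myotubes, Scn4a had log2 fold changes from -0.30 to 0.39 and Atp1b1 from -0.14 to 0.20, with no call by edgeR. Atp1b2 was called in 4, Fxyd1 and Fxyd5 in 3 each and Clcn1 in 2.

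**Figure D4:**
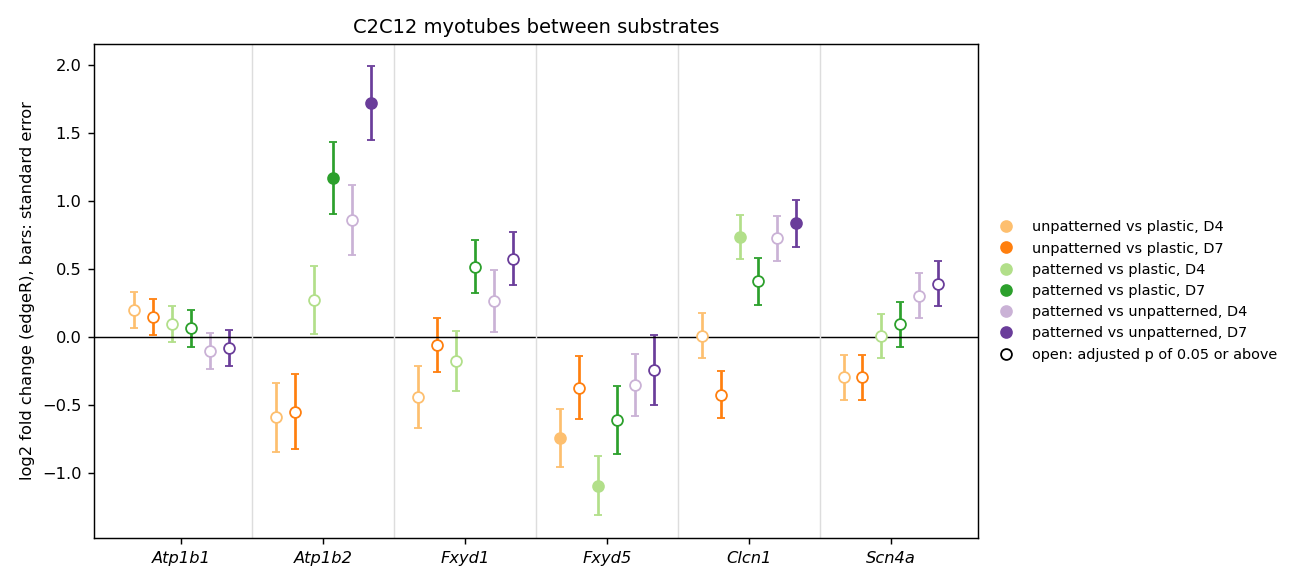
Log2 fold change between surfaces for 6 genes in C2C12 at day 4 and day 7, with bars of 1 SE; filled points were called at an adjusted p under 0.05. Atp1b2 at day 7 is above 0 and filled for patterned against unpatterned gelatin (1.72) and against plastic (1.17), and Fxyd5 at day 4 is below 0 and filled for both gelatins against plastic (-0.74 and -1.09).

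The transcripts behind the channel genes bear on how those values are read. Scn4a has 2 measured transcripts. The coding one, Scn4a-201 of 6598 bases, and Scn4a-202, a processed transcript of 443 bases, held nearly equal TPM, with group means of the coding share between 44.8% and 52.4%. By estimated counts, on which the CPM values and the tests rest, the coding transcript held nearly all of the gene, between 95.4% and 96.9% in the group means. Coding Scn4a alone stood at 0.855 TPM in C2C12 day 0 and between 20.9 and 28.9 TPM in the C2C12 myotube groups. Clcn1 has 10 measured transcripts, of which 2 are coding. Coding Clcn1 held 3.67% of the gene's TPM in C2C12 day 0 and at most 33.1% in any group mean. Its share of the gene's estimated counts was higher, from 12.5% in C2C12 day 0 to 46.5% at day 4 on patterned gelatin, so much of what was tested for Clcn1 came from other transcripts. In C2C12 at day 4 it held 0.542 TPM on plastic, 0.823 TPM on unpatterned and 1.49 TPM on patterned gelatin, and at day 7 it held 0.830, 0.548 and 0.908 TPM in the same order. The pattern is highest on both days, although at day 7 plastic and patterned libraries overlap for the main coding transcript Clcn1-201. Those levels are close to 1 TPM, and the assignment of reads among overlapping transcripts is an estimate.

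**Figure D5:**
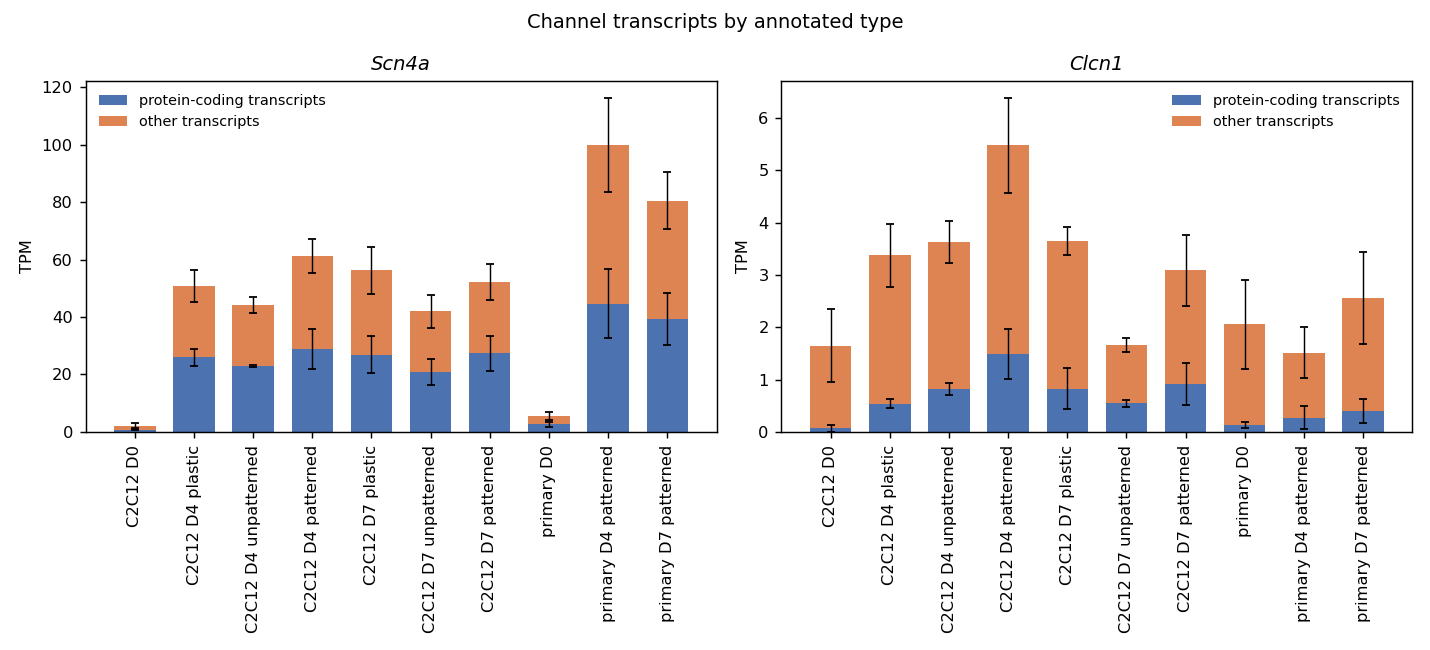
TPM of coding and of other transcripts of Scn4a and Clcn1 in each of the 10 groups, as stacked bars of the mean of 3 libraries with the SD of each segment. Coding Scn4a rises from 0.855 TPM in C2C12 day 0 to 20.9 TPM or more in every C2C12 myotube group, and coding Clcn1 is highest at day 4 on patterned gelatin (1.49 TPM).

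Primary cells were compared at day 0, day 4 and day 7. From day 0 on plastic to day 4 on patterned gelatin, Atp1b2, Scn4a, Atp1b1 and Fxyd1 rose, 4 of 6 genes tested against 42.6% of 14352 genes (20.2% higher). With the replicate number as a block in the fit, the same number of members and 8277 genes were called, in place of 6116 genes. Atp1b2 went from 0.48, 0.49 and 0.43 CPM to 13.7, 20.96 and 25.8 CPM (log2 fold change 5.38 ± 0.58, edgeR adjusted p = 0.000179). Scn4a went from 12.2, 11.5 and 7.59 CPM to 139, 197 and 266 CPM (4.22 ± 0.34, adjusted p = 4.72e-05). Atp1b1 went from 9.35, 10.9 and 5.97 CPM to 68.8, 65.5 and 30.1 CPM (2.59 ± 0.42, adjusted p = 0.00132). For these 3 genes the day 4 libraries lay above those of day 0 (54.3% of all genes had no overlap), and replicate 3 was the lowest Atp1b1 and the highest Scn4a and Atp1b2 library of day 4. Fxyd1, unlike in C2C12, was already present in primary myoblasts, at 2.72, 2.22 and 4.78 CPM, and stood at 9.72, 11.3 and 14.1 CPM at day 4 (1.82 ± 0.29, adjusted p = 0.00121), without overlap. Without day 0 replicate 3 these 4 changes were 5.31 for Atp1b2, 4.02 for Scn4a, 2.36 for Atp1b1 and 2.18 for Fxyd1, and without day 4 replicate 3 they were 5.15, 3.95, 2.88 and 1.65 in that order, each still called. Clcn1 (0.57 ± 0.46, adjusted p = 0.358) and Fxyd5 (-0.72 ± 0.41, adjusted p = 0.192) were not called. Clcn1 read 2.07, 1.01 and 1.22 CPM at day 0 and 1.04, 3.40 and 2.15 CPM at day 4, the days overlap, and limma on log2(TPM + 1) gave -0.27.

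From day 4 to day 7 in primary cells edgeR called 0 of 6 members and 0% of genes, with 0 members and 666 genes at an unadjusted p under 0.05, and DESeq2 called 0 members and 58 genes. Atp1b2 at day 7 read 38.1, 36.7 and 9.65 CPM, and replicate 3 is the library with the lowest sum of differentiating muscle markers among primary myotubes. The change was 0.48 ± 0.45 (adjusted p = 0.999), or 0.89 without that library (0.631). Clcn1 at day 7 read 2.42, 3.82 and 2.82 CPM (0.47 ± 0.46). Fxyd1 at day 7 was at 11.9, 14.4 and 11.1 CPM and Scn4a at 129, 185 and 209 CPM, and both overlap their day 4 libraries. Same-numbered primary libraries deviate together, and within those pairs Scn4a was lower at day 7 in 3 of 3 and Clcn1 higher in 3 of 3. The pairs of Atp1b1, Atp1b2, Fxyd1 and Fxyd5 went both ways. The share of all genes with 3 of 3 pairs in the same direction was not computed, so no change is read from these pairs. With the number as a block Scn4a was -0.19 (edgeR adjusted p = 0.84) and Clcn1 0.50 (0.728). Atp1b4 had its highest values of all groups here, at counts of 73, 27 and 0, or 2.80, 1.49 and 0 CPM. A count of 3, the least that would be told from 0, corresponds to between 0.0521 and 0.226 CPM over the libraries for Atp1b4, and this floor covers counting error only.

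Primary and C2C12 cells were compared in a fit over all 30 libraries. Cell type, source and culture history change together in these comparisons and cannot be told apart. Fxyd1 and Scn4a were higher in primary cells at day 0, where growth conditions may have differed, and at day 4 and day 7 on patterned gelatin. At day 0, 4 of 7 genes were called against 57.5% of 15447 genes. Fxyd1 was higher by 5.61 ± 0.39 (edgeR adjusted p = 1.03e-11) and Scn4a by 1.66 ± 0.26 (6.74e-06), while Fxyd5 was lower, at -2.33 ± 0.30 (4.13e-07), and Atp1b1 at -0.80 ± 0.28 (0.0158). The primary day 0 Fxyd5 libraries read 1.12, 0.94 and 2.05 CPM, all under those of C2C12 day 0, and 62.9% of all genes were as separate between the cells. The Atp1b1 call was lost without C2C12 day 0 replicate 1 (-0.61, adjusted p = 0.0922) and without primary day 0 replicate 3 (-0.55, adjusted p = 0.127). Atp1b2 (-1.10 ± 0.55, adjusted p = 0.0899) and Clcn1 (0.53 ± 0.32, adjusted p = 0.164) were not called.

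On patterned gelatin at day 4, 4 of 7 genes were called against 50.6% of all genes, 2 of them higher against 25.7% and 2 lower against 25%. Fxyd1 (3.21 ± 0.26, edgeR adjusted p = 3.33e-10) and Scn4a (0.81 ± 0.23, adjusted p = 0.0042) were higher in primary cells. Clcn1 was lower (-1.51 ± 0.30, adjusted p = 0.000163), its 1.04, 3.40 and 2.15 CPM lying under all of the 5.34, 7.09 and 6.39 CPM of C2C12, a separation seen for 59.7% of all genes. Fxyd5 was lower by a smaller margin (-0.82 ± 0.31, adjusted p = 0.0335) with overlapping groups, a call lost in 5 of 14 alternatives, among them the one without primary day 4 replicate 3 (-0.58, adjusted p = 0.159). Without that library Scn4a was 0.57 (0.0413). Atp1b1 was close (-0.33 ± 0.26, adjusted p = 0.295).

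At day 7, 4 of 7 were called against 51.5% of all genes. Fxyd1 was higher in primary cells by 1.54 ± 0.24 (edgeR adjusted p = 9.35e-06), with 11.9, 14.4 and 11.1 CPM against 4.76, 4.33 and 3.69 CPM and no overlap, as for 50.1% of all genes. Scn4a (0.68 ± 0.23, adjusted p = 0.0145) and Atp1b4 (2.18 ± 0.91, adjusted p = 0.0499) were also higher and Clcn1 lower (-0.76 ± 0.30, adjusted p = 0.0349). Those calls were lost in 4, 10 and 9 of 14 alternatives in that order, and the Atp1b4 groups overlap, since primary replicate 3 was at 0. Without primary day 7 replicate 3, Atp1b4 was 2.82 (adjusted p = 0.00194), Clcn1 -0.66 (0.104) and Scn4a 0.58 (0.0468). Atp1b2 was 0.76 ± 0.36 (0.0798) with all libraries and 1.23 (0.000884) without that library. Over these same days on patterned gelatin the Fxyd1 change differed between the cells, with an interaction of -1.68 ± 0.34 (adjusted p = 0.0269), 1 of 7 genes against 0.77% of all genes. Fxyd1 rose in C2C12 from day 4 to day 7 and sat near its day 4 level in primary cells.

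Other genes of ion transport show where these members sit. Of 10 further sodium pump genes, 5 could be tested, and between C2C12 day 0 and day 4 on plastic 4 of them rose, with a median log2 fold change of 0.51 (30.2% of all genes were called higher and 27.7% lower in this step, as given above). Fxyd6, another pump regulator, rose by 9.27 ± 0.25 in C2C12 (edgeR adjusted p = 4.24e-16) and again by 1.26 ± 0.12 from day 4 to day 7 on patterned gelatin (6.57e-06). In primary cells 3 of those 5 rose and 1 fell, where 42.6% of all genes were called.

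Of 13 other voltage-gated sodium channel genes, 10 were tested in C2C12 from day 0 to day 4, and 5 rose and 1 fell, 6 of 10 called where 58% of all genes were. Scn3b, an auxiliary subunit, rose by 3.75 ± 0.20 (edgeR adjusted p = 6.57e-12).

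Of 15 other chloride channel genes, all 15 were tested, and 7 rose and 6 fell from C2C12 day 0 to day 4 (median 0.13), 13 of 15 called against the same 58%. Ttyh3 fell by 1.87 (SE 0.18, adjusted p = 4.33e-08). Of 27 potassium channel genes 19 were tested, and 11 rose and 1 fell (median 2.42). The share called in either direction was near the 58% of all genes, where 30.2% of all genes were called higher and 27.7% lower. Kcnn3, a small-conductance calcium-activated channel, rose by 3.15 ± 0.16 (edgeR adjusted p = 3.74e-12). In primary cells 11 of 17 rose against 20.2% of all genes, and Kcnj2, the inward rectifier Kir2.1 that holds the resting potential, rose by 5.42 ± 0.32 (1.64e-05), while in C2C12 it read 0.09 ± 0.11 (0.532). Of 11 transporters 10 were tested, and 5 rose and 1 fell in C2C12, again near 58%, led by Slc12a2, the sodium-potassium-chloride cotransporter NKCC1, at 2.24 ± 0.09 (1.91e-13).

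The genes most like each member over the 10 groups were found by Pearson's r of the group means of log2(CPM + 1), among 12003 genes (12004 for Atp1b4) with a mean log2 CPM of at least 1, as a description over groups that share cell line and substrate. Among the genes nearest to Scn4a were Tead4 (0.995) and Fgfrl1 (0.994), and Atp1b1 was most like Dhcr7 (0.993), Plpp1 (0.992) and Pgm5 (0.989). Fxyd1 was nearest to Catsper2 (0.991), Snrpn (0.987) and Acad12 (0.986), Fxyd5 to Plpp5 (0.979), Hmgn3 (0.968) and Mapre2 (0.961), and Atp1b2 to Zfp830 (0.977), Acvr2b (0.967) and Twf2 (0.966). Clcn1 had its nearest at Vps13d (0.946), Mroh2a (0.938) and Mmp15 (0.935), and Atp1b4 at Dele1 (0.875), Amot (0.870) and Chchd1 (0.869).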

How the data were processed

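For each of 30 libraries the authors deposited kallisto estimated counts and TPM per transcript (mouse mm10 per the labels; versions not given in the sources used here). Both were summed per gene through GENCODE M21; 86031 of 88198 transcripts matched, and the 2167 left out held 0.723% to 0.893% of counts. Summed estimated counts were rounded and tested with edgeR 4.0.16 in R 4.3.3 (filterByExpr, TMM, glmQLFit, glmQLFTest, Benjamini-Hochberg) in 3 fits: 21 C2C12 libraries (14844 genes), 9 primary libraries (14352) and all 30 (15447). Each SE was taken from the F statistic, as the size of the log2 fold change over its root. DESeq2 1.42.0 and limma 3.58.1 served alternatives, and the procedure was tested on simulated counts with known changes. Those counts had less spread between libraries than any of the 3 fits, least like the primary fit, and no link between same-numbered libraries. The simulation therefore does not measure error rates or power in comparisons with primary cells. Replicates were separate cultures, so p-values measure the spread between these cultures. Same-numbered primary libraries deviated together (9 pairs, r from 0.279 to 0.857) and the C2C12 libraries did not. The values given come from fits without the replicate number, and fits with it as a block were an alternative that changed no call of a member in primary cells alone. No 2 libraries were identical.

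Members and gene lists were chosen with earlier results of these data known. All 7 members were named throughout, with, per list, the 4 genes of highest mean TPM and the 2 with the smallest adjusted p where called. Not all of them are printed, and some are not reported here.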

Additional observations from a re-analysis of the deposited data

Results flagged for a closer look

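Fxyd1 behaved differently from day 4 to day 7 on patterned gelatin in the 2 cell types. It rose in C2C12, with a log2 fold change of 1.75, and was 0.09 in primary cells. The difference of the changes, primary minus C2C12, was -1.68 (edgeR adjusted p = 0.0269). It was -1.74 (adjusted p = 0.0435) without C2C12 day 7 patterned replicate 3 and -1.57 (adjusted p = 0.0314) without primary day 7 replicate 3. The call was lost without C2C12 day 4 patterned replicate 2 (-1.53, adjusted p = 0.0735) or replicate 3 (-1.65, adjusted p = 0.0792), when only the compared groups entered the fit (-1.66, adjusted p = 0.108) and in limma on log2(TPM + 0.1) (-1.40, adjusted p = 0.0586).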

How the results depend on the processing

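Of 866 alternative values of the 61 printed fold changes, 766 kept direction and side of the threshold, 81 lost a call, 14 gained one and 5 turned direction, none of the 5 in a called result. Those were Atp1b2 from day 4 to day 7 on patterned gelatin, from -0.36 to 0.030 without 1 library and above 0 only without C2C12 day 7 patterned replicate 3, Clcn1 from day 0 to day 4 in primary cells, -0.27 in limma on log2(TPM + 1) and -0.41 on log2(TPM + 0.1), and Clcn1 on patterned gelatin against plastic at day 7, -0.21 and -0.27 in the same settings. Of 250 counts of members called over 17 comparisons, 194 stayed within 1.5 times the count given. The cause of the others was not tested. From day 4 to day 7 the count became 1 on plastic in limma on log2(TPM + 0.1), 1 on unpatterned gelatin with the replicate block, with coding transcripts only, in limma on log2(TPM + 0.1) and without any 1 library, and 2 on patterned gelatin in limma with either pseudocount. For unpatterned gelatin against plastic it became 0 at day 4 with no filter on low counts, in limma with either pseudocount and without any 1 library, 3 with only the compared groups in the fit, and 1 at day 7 in limma on log2(TPM + 1). For patterned gelatin against plastic it became 1 at day 4 in limma with either pseudocount and ran from 0 to 2 without 1 library. At day 7 it became 2 with coding transcripts only, 0 in limma and with only the compared groups, and ran from 1 to 2 without 1 library. For patterned against unpatterned gelatin it became 1 at day 4 in DESeq2. At day 7 it became 1 with coding transcripts only, 0 in limma and with only the compared groups, and ran from 1 to 2 without 1 library. For primary against C2C12 at day 7 it became 2 with no filter, with coding transcripts only and in limma on log2(TPM + 1), 1 in limma on log2(TPM + 0.1) and with only the compared groups, and ran from 2 to 4 without 1 library. For the interaction of cell and day it became 0 in limma on log2(TPM + 0.1) and with only the compared groups, and ran from 0 to 1 without 1 library. The sum over coding transcripts was chosen after seeing the data.

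With the replicate block the primary day 4 against day 0 comparison called 8277 genes in place of 6116 and the same number of members, 4, and in C2C12, whose libraries share only a number (63 pairs, r from -0.434 to 0.509, 7 of 21 closest to their own number), it moved 1 count of members, on unpatterned gelatin from day 4 to day 7, from 2 to 1. At these depths Atp1b4 rests on single counts in most libraries.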
